A study of Mus musculus with 9 samples.

Results

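The comparison is of circular RNAs in mouse liver between animals given dmPGE2 before an acetaminophen (APAP) overdose and animals given saline. The question is which rings still differ from saline in the pretreated livers. A circular RNA, called a ring below, entered when it had reads in saline 1, saline 2 and all 3 dmPGE2+APAP libraries, which held for 1916 of 11312 rings in the table. Reads of all rings of a host gene were also summed, and 1382 of 3930 hosts met the same rule on their sums. The tested rings comprised 1827 exonic, 71 intronic and 18 intergenic rings, and they held 76.5% to 79.5% of the back-splice reads of the 5 libraries.

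The livers came from wild-type C57 BL6 animals aged 8 weeks, of 20 g on average, with 3 libraries per group. The saline group received the vehicle alone. The APAP group received 500 mg/kg acetaminophen into the peritoneum, and the dmPGE2+APAP group received 300 µg/kg dmPGE2 by the same route 1 hour before that dose. Livers were collected 6 hours after acetaminophen. The APAP libraries were used to estimate the spread and to set their own difference from saline beside that of the pretreated livers. No group received dmPGE2 without acetaminophen among these libraries, so an effect of dmPGE2 alone and one on the injured liver cannot be told apart. The labels do not say which animal gave which library, so p-values measure only the spread between these samples, which may be technical.

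A circular RNA forms when the end of an exon is spliced back to the start of the same or an upstream exon of the same transcript. The closed ring has no free ends, resists exonucleases and often outlives the linear RNA of its host gene. Acetaminophen overdose injures hepatocytes around the central vein, where cytochrome P450 enzymes turn the drug into a reactive quinone imine that uses up glutathione. dmPGE2 is a long-lived analogue of prostaglandin E2, a lipid that signals through EP receptors, part of which raise cyclic AMP.

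The table heads 3 columns BC, and these were taken as saline by elimination, since the labels leave BC undefined. Saline 1 and 2 had 154449 and 129971 back-splice reads, and the dmPGE2+APAP libraries 120531, 99102 and 114791. The APAP libraries had 69268 to 109453. Saline 3 had 4362, with reads in only 563 of the tested rings, and was left out of the principal comparison and its effect is given where it changes a result. No library lists a count of 1, so a ring listed at 0 may still have had 1 read. Levels are given as reads or as CPM, back-splice reads per 1000000 back-splice reads of the library. In whole liver, fewer cells of a type and less RNA per cell cannot be told apart.

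The ring that differed is shown at its junction, because the joint exists only in the circular form, while the bases of either side are also in the linear RNA. The Epha2 ring, chr4:141306514-141309080 on the plus strand of GRCm38, joins the end of exon 3 to the start of exon 2 of the 17 exons of Epha2. Both exons lie in the coding sequence and give a ring of 744 bases, a multiple of 3. The sequence runs 5′ to 3′ through the junction, with 75 bases on each side. The capitals mark the 10 bases before and the 10 after the joint.
Epha2 ring mmu_circ_0001290: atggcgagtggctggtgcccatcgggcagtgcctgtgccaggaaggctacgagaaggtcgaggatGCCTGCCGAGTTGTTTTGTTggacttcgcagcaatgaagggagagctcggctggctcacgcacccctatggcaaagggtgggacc

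Further junctions are shown for rings that the results follow, with 20 bases on each side and the same capitals. They belong to a pair of Rmdn2 rings that share their first exon, and so the bases after the joint, and end at different exons, and to the Tns1 ring. The Rmdn2 rings are chr17:79650302-79659473 and chr17:79650302-79672573 on the plus strand. The Tns1 ring is chr1:73980914-73997104 on the minus strand. All sequences were read from GENCODE M21 transcripts of GRCm38.
Rmdn2 ring novel_circ_0005331: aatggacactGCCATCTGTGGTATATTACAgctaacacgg
Rmdn2 ring novel_circ_0005332: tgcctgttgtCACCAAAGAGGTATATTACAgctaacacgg
Tns1 ring novel_circ_0007487: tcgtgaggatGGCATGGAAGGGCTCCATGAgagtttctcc

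Of the 1916 rings, 1 passed the test and was higher in the dmPGE2+APAP livers (0.0522% of those tested, edgeR quasi-likelihood test, Benjamini-Hochberg adjusted p under 0.05). None of the lower rings passed (0.0%). At an unadjusted p under 0.05 there were 74 rings (3.86%), 37 higher and 37 lower (1.93% each). DESeq2 and limma-voom also passed 1 ring each, with 68 and 105 rings at an unadjusted p under 0.05. Over host genes 2 of 1382 passed (0.145%), Epha2 higher and Zfp609 lower (0.0724% each), with 58 at an unadjusted p under 0.05 (4.2%), 34 higher (2.46%) and 24 lower (1.74%).

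With the same rings and the same saline libraries, APAP without dmPGE2 gave 4 rings that passed (0.209%) and 147 at an unadjusted p under 0.05 (7.67%). dmPGE2+APAP against APAP gave 1 (0.0522%) and 108 (5.64%). For host genes the counts were 4 (0.289%) and 97 (7.02%) for APAP against saline, and 1 (0.0724%) and 64 (4.63%) for dmPGE2+APAP against APAP. The rule asked for reads in the saline and dmPGE2+APAP libraries but not in APAP, and 1487 of the 1916 rings had reads in all 8, so a listed 0 could enter on the APAP side alone. These comparisons share libraries, and whether the counts differ between them was not tested.

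The Epha2 ring was the ring that passed. Epha2 is a receptor tyrosine kinase that binds ephrin-A ligands on neighbouring cells. Its ring had 10 and 16 reads in saline 1 and 2, 109, 89 and 115 in the dmPGE2+APAP libraries, and 59, 82 and 55 in the APAP libraries. Saline 3 was listed at 0. All pretreated libraries lay above both saline libraries and above all APAP libraries in CPM, at 898 to 1002 against 64.7 and 123 in saline and 543 to 794 after APAP. The mean was 934.7 ± 58.2 CPM in dmPGE2+APAP (SD, n = 3) and 93.9 ± 41.3 CPM in saline (SD, n = 2). The ring rose 9.88-fold (log2 fold change 3.30 ± 0.37 SE, edgeR adjusted p = 1.07e-05). It passed in every alternative run, with log2 fold changes of 2.91 to 3.80.

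After APAP alone the Epha2 ring stood 2.83 ± 0.38 (SE) above saline on the log2 scale. Between dmPGE2+APAP and APAP the log2 difference was 0.47 ± 0.27 (SE, 95% interval -0.08 to 1.03) and did not pass (edgeR adjusted p = 0.919). Non-junction reads, those without the back-splice, are listed beside each ring, and where they were counted is not stated. They numbered 98 and 115 in saline, 543, 413 and 445 after APAP, and 471, 269 and 275 in dmPGE2+APAP. The circular share, the percent of junction reads among junction and non-junction reads, was thus 9.26% and 12.2% in saline, 9.80%, 16.6% and 11% after APAP, and 18.8%, 24.9% and 29.5% in dmPGE2+APAP. The pretreated libraries were the 3 highest of the 8, and those of saline and APAP overlapped.

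**Figure D1:**
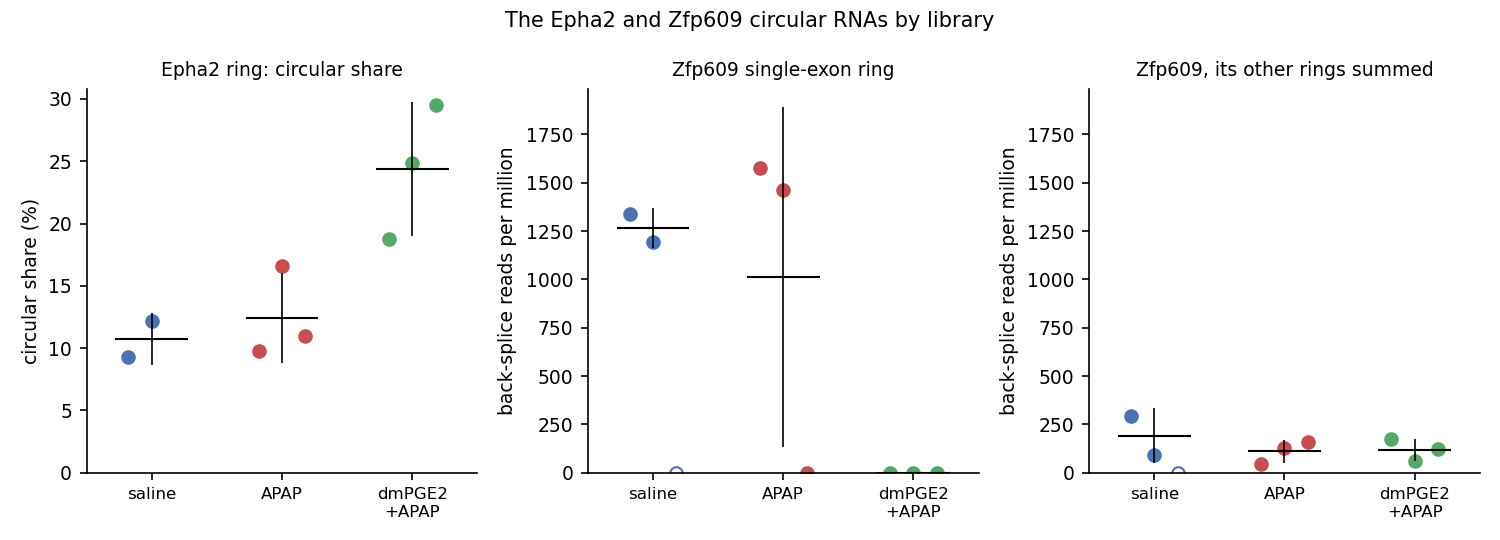
The left panel plots the circular share (%) of the Epha2 ring, the middle panel the level (CPM) of the single-exon Zfp609 ring, and the right panel the other Zfp609 rings summed, on the same scale as the middle panel. Each point is a library, lines show mean ± SD without saline 3 (open circle), and the Epha2 share is 18.8% to 29.5% in dmPGE2+APAP against 9.26% and 12.2% in saline while no pretreated library lists the single-exon Zfp609 ring.

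Zfp609, which encodes a zinc finger protein, was the host gene that passed as lower. Its summed rings had 252 and 167 reads in saline 1 and 2, and 21, 6 and 14 in dmPGE2+APAP. All pretreated libraries lay below both saline libraries. The log2 fold change was -3.60 ± 0.55 (SE, edgeR adjusted p = 1.48e-04). It did not pass in DESeq2 (adjusted p = 0.153) or in edgeR without saline 1 (adjusted p = 0.0598).

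The Zfp609 fall rested on 1 ring, mmu_circ_0001797, made of the second exon alone (chr9:65794622-65795495, minus strand, 874 bases). This ring had 207 and 155 reads in saline 1 and 2 and none listed in any pretreated library, so it was outside the tested rings. It had 171 and 160 reads in APAP 1 and 2 and was listed at 0 in APAP 3 and in saline 3. The other 3 Zfp609 rings summed to 45 and 12 reads in saline and 21, 6 and 14 in dmPGE2+APAP, a log2 ratio of mean CPM of -0.69 with overlapping libraries and no test. Leaving this ring out was chosen after seeing the data.

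Other abundant rings were also listed at 0 in 1 or more libraries. Of 298 rings with at least 100 reads in 1 or more of the 8 libraries other than saline 3, 11 (3.69%) were listed at 0 in another. Examples are the Hipk3 ring mmu_circ_0001052, with 195 reads in saline 2, 196 in APAP 1 and 0 in the other 6, and the Prox1 ring novel_circ_0007110, with 161 and 104 reads in saline and 0, 95 and 89 in dmPGE2+APAP. Only the Zfp609 ring among the 298 was at 0 in all dmPGE2+APAP libraries with reads in both saline 1 and 2. None was at 0 in both saline libraries with reads in all 3 dmPGE2+APAP libraries. Whether a listed 0 in such a ring is a missing call was not tested.

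**Figure D2:**
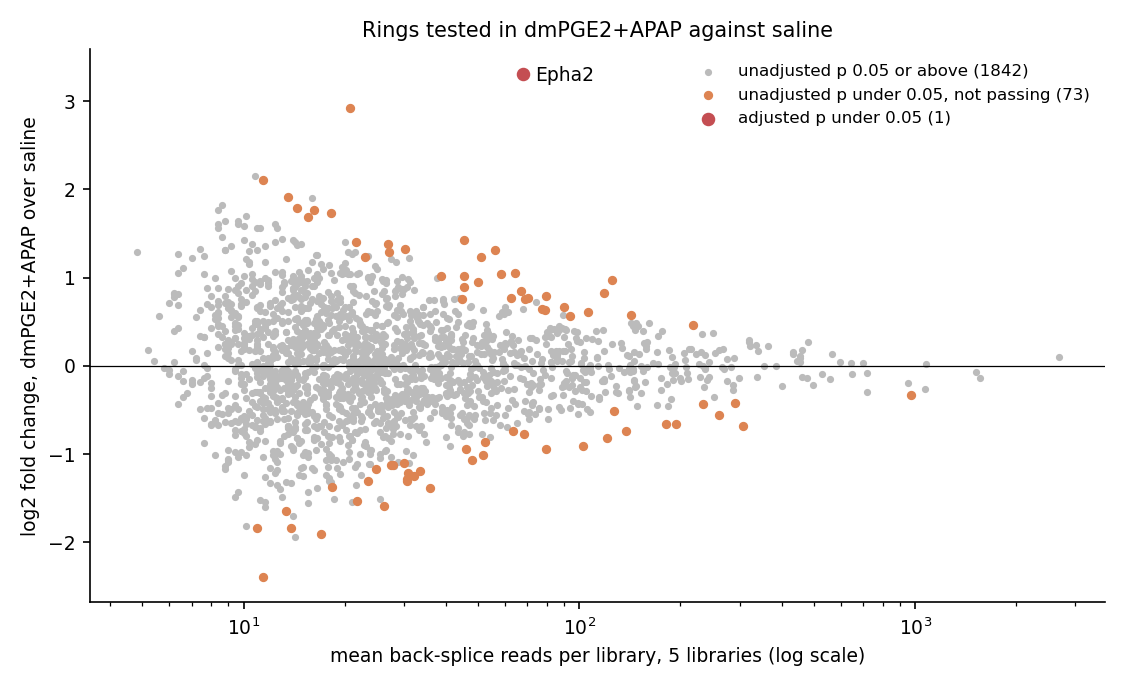
Each point is a tested ring, with mean back-splice reads per library over the 5 libraries on a log axis and the log2 fold change of dmPGE2+APAP over saline on the vertical axis. Grey points have an unadjusted p of 0.05 or above, orange points lie under 0.05 without passing (73) and the red point, Epha2, passed; the spread of fold changes narrows to the right.

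How small a difference could be seen depended on the reads of a ring. For 190 rings with a mean of 100 reads or more per library the median SE of the log2 fold change was 0.23, and for 171 of them the 95% interval lay within a 2-fold change in either direction. This held for 142 of 526 rings with 30 to 100 reads (median SE 0.42), and for 0 of 1024 with 10 to 30 reads (0.77) and 0 of 176 below that (1.13). In all, 313 rings (16.3%) and 341 host genes (24.7%) were bounded within 2-fold. For the rest, a 2-fold difference was not excluded at this depth. In 225 rings (11.7%) all pretreated libraries lay above both saline libraries in CPM and in 223 (11.6%) all lay below, and for hosts in 164 (11.9%) and 163 (11.8%).

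The 8 most abundant of the tested rings stood close to their saline level. The abundant intergenic ring novel_circ_0010359, outside the tested set, did not, with 23076 and 9541 CPM in saline 1 and 2 and 0, 9263 and 7361 in dmPGE2+APAP. The Rnf169 ring, from a ubiquitin ligase gene of the DNA damage response, had 20026 and 21243 CPM in saline and 23662, 21755 and 21866 in dmPGE2+APAP, all above saline 1 and 2 (log2 fold change 0.10, 95% interval -0.12 to 0.32). The ring of Gigyf2, a translational repressor, stood at -0.14 ± 0.12, that of Aass, an enzyme of lysine breakdown, at -0.07 ± 0.15, that of Nfix, a transcription factor, at -0.19 ± 0.14 and that of Ttc39c at 0.02 ± 0.13 (log2 fold change ± SE). The Alg12 ring, from a mannosyltransferase gene of N-glycan assembly, stood at -0.08 ± 0.16 and the Rmdn2 ring novel_circ_0005331 at -0.26 ± 0.16. The Tmem56 ring had 8158 and 9341 CPM in saline and 6569 to 7344 in dmPGE2+APAP, all below saline (-0.33 ± 0.14, unadjusted p = 0.0228, edgeR adjusted p = 0.997). The intervals of all 8 lay within a 2-fold change.

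Pairs of libraries from the 2 groups were about as far apart as pairs within a group. The median absolute log2 CPM difference over the tested rings was 0.470 between saline 1 and 2, 0.478 to 0.497 between dmPGE2+APAP libraries, and 0.459 to 0.532 across the 2 groups.

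The rings with the next smallest p-values did not pass, and are given with their values. Among rings with higher values the smallest p belonged to the ring of Tlk1, a kinase of histone chaperones, with 104 and 83 reads in saline and 166, 124 and 148 in dmPGE2+APAP. All pretreated libraries lay above saline 1 and 2 (1251 to 1377 CPM against 673 and 639), and saline 3, with 8 reads, lay above them at 1834 CPM. The log2 fold change was 0.97 ± 0.24 (SE, unadjusted p = 0.000628, edgeR adjusted p = 0.602). The 13 Tlk1 rings summed gave 0.51 ± 0.19.

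For a few of the lower rings the host sum is given beside the ring. The ring novel_circ_0014841 of Bckdhb, a subunit of the branched-chain keto acid dehydrogenase, had 507 and 375 reads in saline and 189, 175 and 288 in dmPGE2+APAP (log2 fold change -0.68 ± 0.21, edgeR adjusted p = 0.713), and the 11 Bckdhb rings summed gave -0.23 ± 0.12. For Dpyd, which starts pyrimidine breakdown, the ring novel_circ_0008999 stood at -0.74 ± 0.23 and the sum of 29 rings at -0.37 ± 0.16. For Slco1b2, a hepatocyte uptake transporter, the ring novel_circ_0011962 stood at -0.66 ± 0.22 and the sum of 9 rings at -0.29 ± 0.17. For Rabep1, an endosomal protein, the ring novel_circ_0001346 stood at -0.91 ± 0.30 and the sum of 21 rings at -0.13 ± 0.13. Without saline 2 the Rabep1 ring stood at -0.33. None of these passed, and whether ring and host differ was not tested.

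The other rings with higher values that did not pass came from genes of several kinds. The ring of Smad1, a transducer of BMP signals, had 106 and 85 reads in saline and 151, 133 and 118 in dmPGE2+APAP (log2 fold change 0.82 ± 0.24). That of Fkbp5, a co-chaperone induced by glucocorticoids, had 29 and 24 against 84, 40 and 49 (1.43 ± 0.43). Every pretreated library lay above both saline libraries in CPM for these rings, as for those of Akap7, an anchor of protein kinase A (1.24 ± 0.36), Snx29 (1.32 ± 0.38), Csnk1g3, a casein kinase (1.04 ± 0.34), and Mtmr3, a phosphoinositide phosphatase (0.79 ± 0.30). For the Akap7 ring saline 3, with 4 reads, lay above the pretreated libraries at 917 CPM. EdgeR adjusted p-values of these 6 rings were 0.713 to 0.997.

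The ring of Tns1, a focal adhesion protein, had the largest fold change among these rings. It had 4 and 6 reads in saline, 9, 24 and 0 after APAP, and 34, 28 and 32 in dmPGE2+APAP. The pretreated libraries stood at 279 to 283 CPM and saline 1 and 2 at 25.9 and 46.2, while saline 3, with 3 reads, stood at 688 CPM. The log2 fold change was 2.92 ± 0.90 (SE, edgeR adjusted p = 0.713). It passed when only the 5 libraries of the comparison entered the fit (adjusted p = 0.0409).

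Among rings with lower values, that of Strn3, a scaffold of the STRIPAK phosphatase complex, had 292 and 260 reads in saline and 156, 106 and 158 in dmPGE2+APAP, all below saline in CPM (log2 fold change -0.66 ± 0.22). Its host sum stood at -0.72 ± 0.21. Rings of Pfkfb1, which makes and breaks down fructose bisphosphate in liver (-0.94 ± 0.30), Zfp512 (-0.86 ± 0.35), Cfdp1 (-1.29 ± 0.54) and Gm4788 (-1.90 ± 0.73) also lay below saline in every pretreated library. None passed (edgeR adjusted p 0.735 to 0.997). Of the 37 lower rings at an unadjusted p under 0.05, 31 were exonic, and of the 37 higher ones all 37. Over all tested rings 1827 of 1916 were exonic. The median exon number of the lower and the higher rings was 4 and 2, against 3 over all tested rings. Neither was tested.

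**Figure D3:**
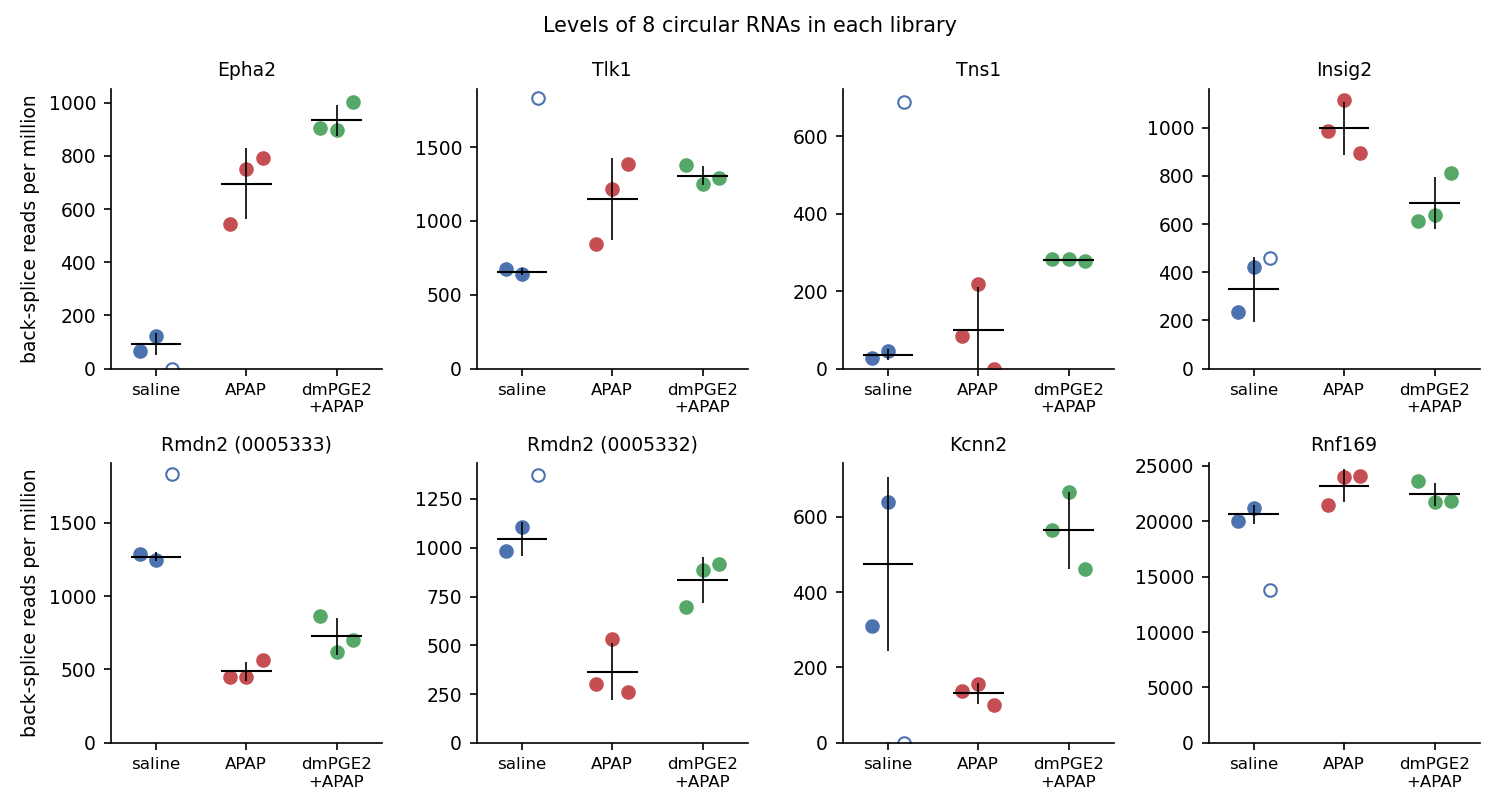
CPM in each library is plotted for rings of Epha2, Tlk1, Tns1, Insig2, Rmdn2 (2 rings), Kcnn2 and Rnf169; points are libraries, lines mean ± SD without saline 3 (open circle). Epha2 stands at 898 to 1002 in dmPGE2+APAP against 64.7 and 123 in saline, and Kcnn2 and Rnf169 lie near their saline level.

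Rings and hosts that earlier work on these data had named in APAP against saline were then followed into the pretreated livers. They were chosen from these libraries, so their APAP values are a description, and both contrasts use saline 1 and 2. Of 15 such host genes, 8 met the rule for testing. Among these, Epha2, Arhgap10, Rmdn2 and Insig2 passed after APAP in the present fit, and Kcnn2, Zfp609, Erc1 and Scp2 did not. Epha2 and Zfp609 are given above, and of the other 6 none passed against saline in dmPGE2+APAP.

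Kcnn2, a calcium-activated potassium channel, had 1 ring with 48 and 83 reads in saline, 15, 17 and 7 after APAP and 68, 66 and 53 in dmPGE2+APAP. The pretreated libraries overlapped saline and lay above every APAP library. The log2 difference from saline was 0.23 ± 0.40 (SE, 95% interval -0.58 to 1.05) in dmPGE2+APAP and -1.85 ± 0.44 after APAP. Without saline 1 the former was -0.19. Between dmPGE2+APAP and APAP it was 2.09 ± 0.40 (edgeR adjusted p = 0.0497 over rings and 0.0516 over hosts), the 1 ring that passed there.

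Rmdn2 encodes a microtubule-associated protein and is among the most abundant hosts. Its 6 rings summed to 12082 and 11933 CPM in saline, 6285, 7903 and 6540 after APAP, and 7708, 11130 and 10323 in dmPGE2+APAP. Every pretreated library lay below both saline libraries, and dmPGE2+APAP 1 lay within the APAP range. The log2 difference from saline was -0.33 ± 0.13 (SE, edgeR adjusted p = 0.89; limma-voom -0.36, adjusted p = 0.0233) with dmPGE2 and -0.82 ± 0.13 (adjusted p = 7.23e-04) without. Between dmPGE2+APAP and APAP it was 0.49 ± 0.12 (adjusted p = 0.156).

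The 3 most abundant Rmdn2 rings begin at the same exon and differed in how far they stood from saline. The ring novel_circ_0005332 had 152 and 144 reads in saline, 33, 58 and 18 after APAP and 84, 88 and 105 in dmPGE2+APAP, a log2 fold change of -0.35 ± 0.30 in the pretreated livers beside -1.54 ± 0.31 after APAP. The ring novel_circ_0005333, which runs to a later exon, had 199 and 162, then 49, 49 and 39, then 104, 61 and 80 reads (-0.82 ± 0.26 beside -1.45 ± 0.27). The abundant ring novel_circ_0005331 stood at -0.26 ± 0.16 beside -0.73 ± 0.17. In the first 2, all pretreated libraries lay between saline and APAP in CPM, and the differences between the 3 rings were not tested.

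Insig2 encodes a protein of the endoplasmic reticulum that holds back the sterol-sensing machinery. Its ring novel_circ_0006604 had 36 and 55 reads in saline, 107, 122 and 62 after APAP and 74, 63 and 93 in dmPGE2+APAP. In CPM the pretreated libraries (614 to 810) lay above saline 1 and 2 (233 and 423) and below every APAP library (895 to 1115). The log2 difference from saline was 1.06 ± 0.31 with dmPGE2 (edgeR adjusted p = 0.713) and 1.57 ± 0.31 without (adjusted p = 0.0245).

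Arhgap10 had 809 and 516 CPM over its 11 rings in saline, 1831, 2439 and 1891 after APAP, and 1410, 1029 and 1054 in dmPGE2+APAP. The pretreated libraries lay between the other groups without overlap. The log2 difference from saline was 0.79 ± 0.26 with dmPGE2 (edgeR adjusted p = 0.89) and 1.60 ± 0.26 without (adjusted p = 8.27e-04). Its tested rings stood at 0.43 to 0.87 above saline in dmPGE2+APAP, and the most abundant of them, mmu_circ_0001692, at 0.56 ± 0.38 and at -0.01 without saline 2. Erc1 (0.26 ± 0.25 beside 0.36 ± 0.25 after APAP) and Scp2, a lipid transfer protein (0.19 ± 0.20 beside -0.18 ± 0.20), complete the 8.

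The other 7 hosts named in APAP against saline lacked reads in at least 1 of the 5 libraries. Neat1, the noncoding RNA that scaffolds paraspeckles, had 0 and 3 reads in saline, 88, 97 and 65 after APAP and 20, 7 and 15 in dmPGE2+APAP. All pretreated libraries stood above both saline libraries (70.6 to 166 CPM against 0 and 23.1) and below all APAP libraries (810 to 938 CPM). Its ring novel_circ_0006472 had 0 reads in saline, 36, 53 and 39 after APAP and 17, 7 and 15 in dmPGE2+APAP. Trpc6, a cation channel, had 0 and 6 reads in saline and 16, 5 and 10 in dmPGE2+APAP, against 37, 49 and 29 after APAP. Pde5a had 26 and 0 reads in saline and 78, 6 and 0 in dmPGE2+APAP. Pwwp2a, Senp1, Arid1a and Hipk3 had reads in 0 to 3 of the 3 pretreated libraries, at most 21 per library.

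**Figure D4:**
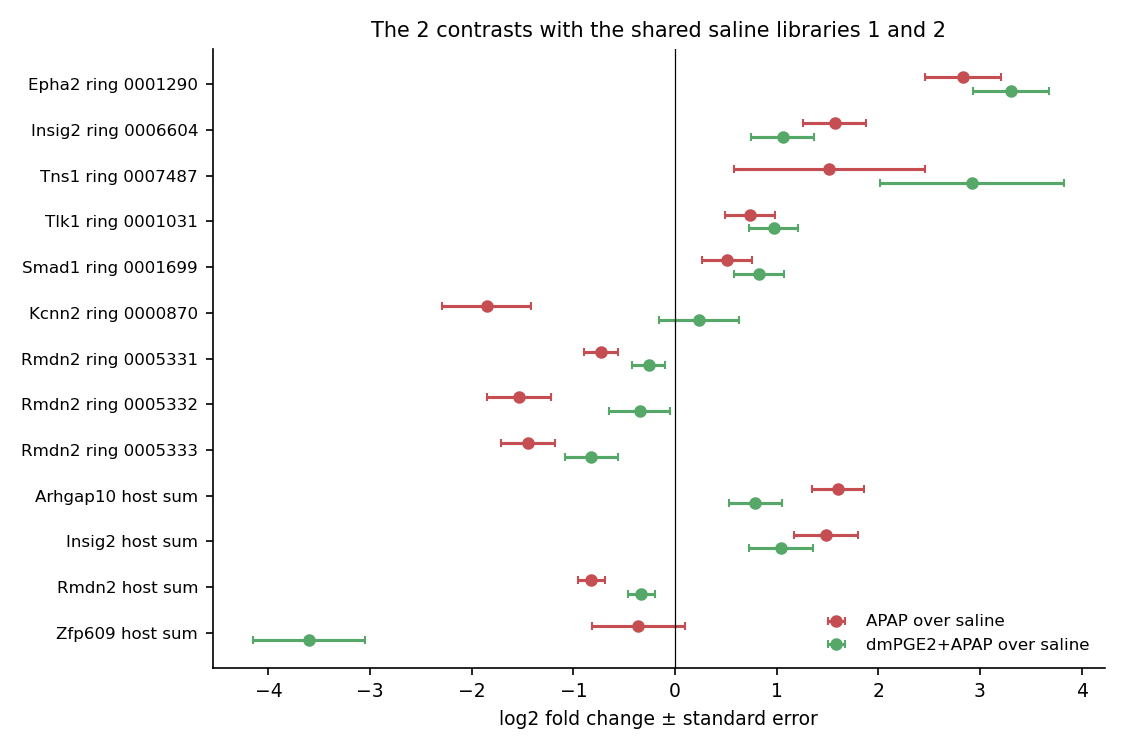
Log2 fold changes over saline 1 and 2, with standard errors, are shown side by side for APAP (red) and dmPGE2+APAP (green), for 9 rings and 4 host sums. Epha2 stands at 2.83 and 3.30, Kcnn2 at -1.85 and 0.23, and the Zfp609 sum at -0.36 and -3.60, in that order; both contrasts use the same saline libraries.

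A wider set of 4331 rings, with at least 5 reads in 3 of the 9 libraries, gave 4 calls, which were Epha2, the single-exon Zfp609 ring, the Neat1 ring and the Erc1 ring novel_circ_0011754. The last 3 were listed at 0 throughout 1 of the 2 groups and entered that set only through libraries where they were high, so their calls are not used as results. The Erc1 ring was uneven within its group, at 0, 43 and 47 reads in dmPGE2+APAP. Counted without a test, 62 rings outside the tested set had at least 5 reads in all 3 dmPGE2+APAP libraries and were listed at 0 in saline 1 and 2, and 117 had at least 5 reads in saline 1 and 2 and were listed at 0 in all 3 dmPGE2+APAP libraries. The counts cannot be compared, since the criteria differ in the number of libraries and saline 1 and 2 are the deepest. They were low: the median of the highest count was 13 for the former and 12 for the latter. Of the 62, 10 were also at 0 in all APAP libraries, and of the 117, 52 were. The highest of the former by mean CPM came from Fbxo31, with 5, 12 and 53 reads in dmPGE2+APAP, an intergenic site (17, 20 and 17) and Klc2, a kinesin light chain (24, 22 and 8). After Zfp609, the highest of the latter were rings of Ash1l, a histone methyltransferase, with 22 and 24 reads in saline, and Arih1, a ubiquitin ligase, with 16 and 25.

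Host genes were also read by function, over lists of pathway and cell type genes, beside the values over all 1382 hosts. Over these the median log2 fold change was 0.02, 2.46% were higher and 1.74% lower at an unadjusted p under 0.05, and the ranges lay apart above saline in 11.9% and below in 11.8%. In prostaglandin and cyclic AMP signalling 9 of 59 listed genes were tested and none passed. Their median was 0.35, and Akap7 alone had an unadjusted p under 0.05 (569.8 and 469 CPM in saline 1 and 2, 1045, 1049 and 610 in dmPGE2+APAP, log2 fold change 0.77 ± 0.31). In saline 3, with 8 reads, Akap7 stood at 1834 CPM, above every pretreated library. With saline 3 in the fit its log2 fold change was 0.58 ± 0.38 (SE, edgeR unadjusted p = 0.138). Ptgr2, which reduces prostaglandin metabolites, was the most abundant member and stood at -0.43 ± 0.24.

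In drug metabolism 14 of 66 genes were tested and none passed (median -0.21). Dpyd was the member with an unadjusted p under 0.05, and all pretreated libraries lay below saline in 6 of the 14 and above in 1 (over all hosts 11.8% and 11.9%). Of 3 tested pericentral genes (median -0.22) and 8 periportal genes (0.10) none passed or had an unadjusted p under 0.05. In glutathione synthesis and the NRF2 response 4 genes were tested, with Bach1, a repressor of NRF2 target genes, at 0.97 ± 0.45 (unadjusted p = 0.0441, edgeR adjusted p = 0.998). Gclc, the catalytic subunit of the ligase that starts glutathione synthesis, stood at 0.27 ± 0.30. The stress response (4 tested, Atf6 at 0.74 ± 0.38) and inflammation (4 tested, Nfkb1 at 0.15 ± 0.21) had none passing.

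Among 27 tested genes of adhesion and the cytoskeleton, Epha2 passed and 6 higher and 1 lower had an unadjusted p under 0.05 (over all hosts 2.46% and 1.74%), with a median of 0.06. The higher ones besides Epha2 included Arhgap10, Myo1e, a class I myosin (0.74 ± 0.25), and the tensin genes Tns1 (2.28 ± 0.77) and Tns3 (0.45 ± 0.21), and the lower one was Rmdn2. In lipid and bile acid metabolism 3 of 28 were higher at that level, Insig2 (1.05 ± 0.32), Lpin1, a phosphatidate phosphatase (0.84 ± 0.40, and -0.15 over its tested rings alone), and Elovl5, a fatty acid elongase (2.29 ± 0.94, and 1.72 to 3.15 when 1 library was left out), and none lower (over all hosts 2.46% and 1.74%). In amino acid and carbohydrate metabolism 2 of 28 were lower, Pfkfb1 (-0.98 ± 0.33) and Kynu, an enzyme of tryptophan breakdown (-0.46 ± 0.22), and none higher (over all hosts 1.74% and 2.46%). The medians were 0.06 and -0.16. The lists were chosen with earlier results of these data known, and no list as a whole was tested.

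Of 50 tested chromatin genes the coactivator Ncoa2 (0.52 ± 0.19) was higher and the acetyltransferase Kat6b (-0.94 ± 0.35) and Ash1l (-0.39 ± 0.18) lower at an unadjusted p under 0.05 (over all hosts 2.46% and 1.74%). Kat6b stood at -1.34 to -0.39 when 1 library was left out. Its sum had 113 and 184 reads in saline 1 and 2. Of these, 0 and 84 came from the ring mmu_circ_0000505, listed at 0 in every dmPGE2+APAP library. Of 25 genes of proliferation and regeneration Pik3r1, the regulatory subunit of PI3 kinase, was higher (0.58 ± 0.27). Secreted plasma proteins (13 tested), splicing and ring-handling factors (14) and ubiquitin or SUMO genes (42) had none at that level. Remaining hosts among those with the smallest p-values were Rabgef1 (0.52 ± 0.18), Lmbr1 (1.94 ± 0.67) and Mtmr3 (0.78 ± 0.25) with higher values, and Mettl6 (-1.70 ± 0.64), Glt1d1 (-0.47 ± 0.18), Ubn2 (-1.005 ± 0.40), Zfp236 (-0.76 ± 0.30) and Chuk, a kinase of the NF-kappa-B pathway (-0.68 ± 0.27), with lower values. None of the hosts in this paragraph passed (edgeR adjusted p 0.89 to 0.998).

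Markers of liver cell types were looked up by their rings, which only part of the genes make. Rings were listed for 6 of 9 hepatocyte markers, while Ttr, Serpina1a and Cyp3a11 were at 0. The 6 summed to 800 to 1023 CPM in saline 1 and 2 and 1327 to 1376 in dmPGE2+APAP, without overlap. Over all hosts the ranges lay apart above saline in 11.9%. The sum was 1096 to 1546 CPM after APAP and 1146 in saline 3. Most of it was Cps1, with 829 and 692 CPM in saline 1 and 2 and 906 to 1302 in dmPGE2+APAP (log2 fold change 0.44 ± 0.28). Of 12 Kupffer cell and macrophage markers only Adgre1 had rings (686 and 816 CPM in saline, 696 to 967 in dmPGE2+APAP). Of 17 sinusoidal endothelial markers 8 had rings (2608 to 2810 against 2522 to 2765 CPM), of 14 neutrophil and lymphocyte markers 3 (46.2 to 97.1 against 60.5 to 183), of 15 stellate markers 4 (259 to 415 against 353 to 606) and of 9 cholangiocyte markers 1 (97.1 to 231 against 200.4 to 464). Among tested markers Adgre1 stood at 0.11 ± 0.38, Ets1 at 1.05 ± 1.29 and Pkhd1 at 0.93 ± 0.59 on the log2 scale. Of 4 tested endothelial markers Mrc1 stood at 0.02 ± 0.31, Plpp3 at 0.26 ± 0.29 and F8 at -0.67 ± 0.70, and the median of the 4 was -0.14. F8 lay below saline 1 and 2 in every pretreated library, as did 11.8% of all hosts. None passed, and the part of cell composition in any ring above was not tested.

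The circular share was then summed over many rings. The rule for usable read lists can leave out rings whose non-junction reads had 3 digits throughout. Over 1445 rings with usable read lists in the 5 libraries it was 47.7% and 46.5% in saline 1 and 2 and 42.3%, 40.7% and 42.7% in dmPGE2+APAP. The groups did not overlap, and the means were 47.1% ± 0.886 (SD, n = 2) and 41.9% ± 1.09 (SD, n = 3), a difference of -5.21 percentage points (exact permutation test, two-sided, p = 0.1, the lowest value possible with 10 arrangements). Back-splice reads at these rings numbered 79511 and 69448 in saline 1 and 2 and 53478 to 63153 in dmPGE2+APAP. Non-junction reads numbered 87065 and 79967 against 78030 to 86096. As counted, the 2 groups lay apart in junction reads and overlapped in non-junction reads. These numbers were not scaled to library totals, which were highest in saline 1 and 2. They therefore do not show which kind of read moved the share.

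By ring, the mean share was lower in dmPGE2+APAP in 935 of 1445 (64.7%), with a median change of -3.48 percentage points. All pretreated libraries lay below both saline libraries in 284 rings (19.7%) and above in 86 (5.95%). The Epha2 ring was among the latter. On the 1125 rings with values in all 8 libraries the share was 50.9% and 49.7% in saline, 44.0%, 47.3% and 37.8% after APAP and 45.7%, 44.1% and 46.1% in dmPGE2+APAP, so the pretreated libraries lay within the APAP range. Saline 3 had a share of 3.17% on the 391 rings with values in all 9 libraries, where the others had 49.4% to 60.9%. With saline 3 the difference was 14.2 percentage points in the other direction. That value is over another set of rings, those with usable lists in all 6 libraries of the 2 groups. The library total moved with the share, being higher in saline 1 and 2 than in every dmPGE2+APAP library, and its part was not tested.

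**Figure D5:**
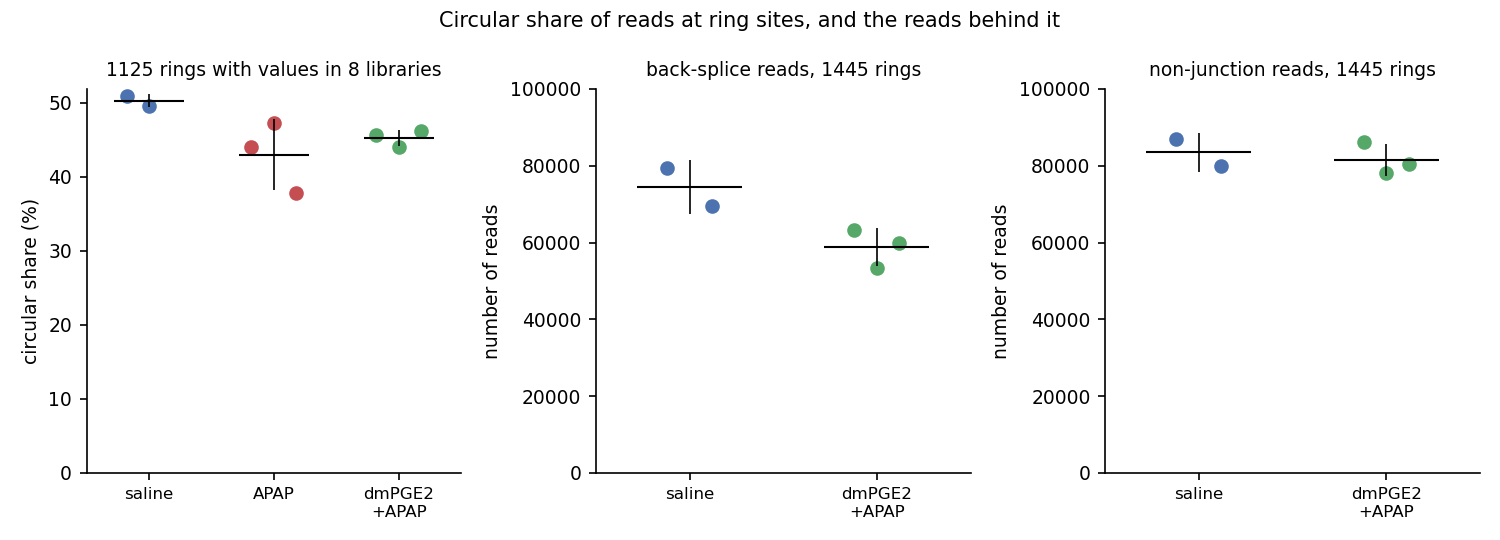
The left panel shows the circular share (%) at 1125 rings in the 8 libraries other than saline 3, and the other panels the back-splice and non-junction reads (number) at 1445 rings in the 5 libraries compared. Points are libraries and lines mean ± SD. Saline stands at 49.7% and 50.9% and dmPGE2+APAP at 44.1% to 46.1%. In read numbers, which are not scaled to library totals, the 2 groups overlap in non-junction reads only.

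Exonic rings held 93.6% and 94.8% of back-splice reads in saline 1 and 2 and 95.8%, 95.1% and 95.4% in dmPGE2+APAP (difference of means 1.25 percentage points, exact permutation p = 0.1). Intergenic rings held 3.04% and 1.79% against 0.75%, 1.74% and 1.43% (difference -1.11, exact permutation p = 0.1). Both rested largely on 1 intergenic ring, novel_circ_0010359, with 3564 and 1240 reads in saline and 0, 918 and 845 in dmPGE2+APAP. Without it the exonic difference was 0.23 (exact permutation p = 0.2) and the intergenic one -0.04 (exact permutation p = 0.5). The 10 most abundant rings of a library held 11.3% and 10.8% of reads in saline and 9.67% to 9.75% in dmPGE2+APAP (difference -1.30, exact permutation p = 0.1), and -0.54 without that ring (exact permutation p = 0.2). The mean number of exons per exonic back-splice read was 3.07 and 3.10 against 3.03 to 3.05 (difference -0.05, exact permutation p = 0.1).

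Adding saline 3 to the fit left the calls as they were, with 1 ring (0.0522%) and 2 hosts (0.145%) that passed, and 49 rings (2.56%) and 34 hosts (2.46%) at an unadjusted p under 0.05. It moved the median log2 fold change of all rings from 0.01 to 0.14 and of all hosts from 0.02 to 0.12. Epha2 then stood at 3.39 ± 0.51 and the Zfp609 sum at -3.36 ± 0.57 (SE).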

How the data were processed

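Ribosome-depleted libraries were made from total RNA of mouse liver with strand marked by dUTP, per the labels' protocols. The deposited table gives, per the file headers, a count of back-splice junction reads for each circular RNA and library, a TPM value, positions, lengths and comma-separated non-junction reads. The counts are whole numbers left unscaled by the authors. The TPM that the authors deposited is each count divided by 1 value per library and was not used further, and 3 TPM columns of the saline code were not read. Deposited lengths are other values, in bases. Per the submitters' processing notes, HISAT2 and the builds GRCm38 and mm10 were used in a role not stated, and the caller of circular RNAs is not given in the sources used here. The saline columns carry a code that no label explains, and were assigned by elimination, with the numbers in their headers. In 1753 of 11312 rings the non-junction list was left out as unusable. Its length did not match the libraries listed, or every item after the first had 3 digits, as in 1 merged number. A true list of such values would be left out too, so some rings with many non-junction reads may be missing from the circular shares. The lists kept are given as other values per the file headers.

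Counts entered edgeR 4.0.16 (R 4.3.3) with TMM scaling, library totals over the whole table, 1 mean per group and 8 libraries (saline 3 left out, used in alternatives). The quasi-likelihood F test was two-sided, with Benjamini-Hochberg adjustment over all tested rings or hosts and a threshold of 0.05. SEs come from the model's information matrix and the moderated quasi-dispersion. Library measures were compared by exact permutation. DESeq2 1.42.0 and limma 3.58.1 (voom), other filters, scalings and sets of libraries, and leaving out each library were alternatives. The fits were also run on simulated counts with known changes, and the outcome is not given here. Rings and hosts are named by a rule. It took those that passed, up to 10 rises and 10 falls with the smallest p and CPM ranges apart, and the 8 most abundant. It also took list members at an unadjusted p under 0.05 or most abundant in a list. Those that earlier work named in APAP against saline, and rings at 0 in 1 group, were added. Of the 8 most abundant hosts and of the lists' most abundant members, only part is printed. Members, lists and tests were chosen with earlier results of these data known. Junction sequences were read from GENCODE M21 transcripts where both sides lie in coding sequence of 1 transcript, which held for 4 of 11 rings looked up.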

Additional observations from a re-analysis of the deposited data

How the results depend on the processing

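The Epha2 ring passed in every alternative run. The count of rings that passed was 1 as reported and in every leave-one-out fit, 2 with the 5 libraries of the comparison only (Tns1 added, with 136 rings at an unadjusted p under 0.05), 4 under the filter of 5 reads in 3 libraries (4331 rings, 157 at that level) and 10 without a filter (11283 rings, 209 at that level). The added calls of the last 2 are of rings listed at 0 in 1 or more libraries, and those under the filter entered it through libraries where they were high. The count of hosts was 2, with 1 to 2 when a library was left out (1 without saline 1), 1 in DESeq2, 1 when only tested rings were summed, which leaves out Zfp609, 3 in limma-voom (Rmdn2 added) and under the filter of 5 reads in 3 libraries (Hipk3 added), and 5 without a filter. With the 5 libraries only, 96 hosts had an unadjusted p under 0.05, and without APAP 3 86.

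Same-numbered saline and dmPGE2+APAP libraries correlated at 0.02 over rings and 0.01 to 0.02 over hosts in their deviations from the group means, so the numbers were not taken as pairs. In the fit with the replicate number as a block, 1 ring and 2 hosts passed, as without it (Epha2 3.27, Zfp609 -3.04), and the abundant Ttc39c ring stood at -0.0065.

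With saline 3 added, alone or in a fit without the APAP libraries, the abundant rings of Gigyf2 (0.18 and 0.19), Alg12 (0.11 and 0.12) and Aass (0.14 and 0.15) changed sign. None of them passed in either direction, and the cause was not tested for these or the reversals that follow. The circular share difference became 14.2 percentage points with saline 3, over the rings with usable lists in all 6 libraries of the 2 groups. Over rings in place of reads the exonic difference was -0.0084 percentage points. With tested rings only, Lpin1 stood at -0.15 and Adgre1 at -0.028. Leaving out 1 library gave log2 fold changes that crossed 0, of -0.012 to 1.61 for the Arhgap10 ring, -0.19 to 0.83 for the Kcnn2 ring, -0.21 to 0.83 for the Kcnn2 sum, -0.15 to 0.0162 for the Alg12 ring, -0.21 to 0.085 for the Aass ring, -0.072 to 0.12 for the Ttc39c ring, -0.0248 to 0.24 for Adgre1 and -0.0821 to 0.0652 for Mrc1. The exonic difference ranged from 0.65 to 1.86 and the intergenic one from -1.74 to -0.48, both nearest 0 without saline 1, and the circular share difference from -5.83 to -4.58. No ring with a mean under 30 reads was bounded within 2-fold.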
